A study of Mus musculus with 28 samples.

Results

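A set of 9 genes that cells switch on in response to interferon was followed across the 28 mouse libraries of a ribosome profiling study of TDP-43, an RNA-binding protein linked to amyotrophic lateral sclerosis. The members were Ifit1, Ifit3, Isg15, Irf7, Oasl2, Bst2, Rsad2, Usp18 and Ifi44, chosen by name with earlier results of these data known. All 9 were found by symbol among the 45513 genes of the count tables. MN1 cells, a mouse hybrid line of embryonic motor neurons and neuroblastoma, were transiently transfected with a plasmid for GFP, hTDP-43 or hTDP-43 A315T (human TDP-43 without or with a mutation found in patients), 2 cultures each, and received 100 µg/mL cycloheximide for 3 min before lysis. Primary cortical neurons were taken from embryonic day 16 C57BL/6J mice and kept 14 days in vitro. They were WT (2 cultures, replicates 2 and 3), hTDP-43 (3 cultures) or hTDP-43 A315T (3 cultures), the latter 2 groups hemizygous for a human transgene driven by the prion protein promoter, and they received Ara-C against dividing cells but no cycloheximide before lysis. Each culture gave 1 footprint library (ribosome-protected fragments) and 1 total mRNA library (fragmented poly(A) RNA). All MN1 cultures carried a plasmid, so the comparisons address differences between plasmids and between culture dates, and not the response to transfection itself.

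Interferons are secreted proteins that bind surface receptors and, through the kinases Jak1 and Tyk2, activate a transcription factor complex that contains Stat2 and Irf9. This complex binds a short promoter element, the interferon-stimulated response element, and raises transcription of many antiviral genes. Foreign nucleic acid, transfected DNA included, is known to induce interferons through cytosolic sensors in many cell types, and neurons are known to keep a low basal level of many of these genes.

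Library depth ranged from 1328528 to 2988339 reads assigned to genes in MN1 total mRNA and from 332370 to 1219222 in MN1 footprints. In neurons it ranged from 600385 to 6969578 and from 166064 to 2528820, respectively. A count of 3 reads, taken as the floor for detection, equal between 1.02 and 2.24 CPM (reads per 1000000 assigned reads, after TMM scaling) in MN1 total mRNA but up to 19.3 CPM in the shallowest neuron footprint library. Reads on the mouse Tardbp gene were between 264 and 304 CPM in the GFP total mRNA libraries of MN1 cells and between 428 and 510 CPM with either hTDP-43 plasmid, higher in both as labelled, although human transcripts were not counted apart. In neurons these reads were not higher with a transgene. Total mRNA gave 57.0 and 97.8 CPM in WT against 51.9 to 77.25 CPM with either transgene. Footprints gave 94.5 and 98.5 CPM in WT against 64.2 to 92.5 CPM. Markers of neurons summed to between 4120 and 4801 CPM in neuron total mRNA, against 499 to 585 CPM in MN1 cells, and motor neuron markers to between 1072 and 1297 CPM in MN1 cells, against 18.8 to 34.1 CPM in neurons.

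The promoters of 4 members (RefSeq, GRCm38.p6) are shown because they set those that were read in MN1 cells, Isg15, Bst2 and Irf7, beside Ifit1, which had between 0 and 7 reads per total mRNA library there. Each run holds 250 bases before and 50 bases after the annotated start, 5′ to 3′ on the gene's strand, and capitals mark the core of the response element, GAAA followed after 2 bases by a second GAAA, found on either strand and merged where matches overlap.
Isg15 (chr4:156200769-156201068, minus strand): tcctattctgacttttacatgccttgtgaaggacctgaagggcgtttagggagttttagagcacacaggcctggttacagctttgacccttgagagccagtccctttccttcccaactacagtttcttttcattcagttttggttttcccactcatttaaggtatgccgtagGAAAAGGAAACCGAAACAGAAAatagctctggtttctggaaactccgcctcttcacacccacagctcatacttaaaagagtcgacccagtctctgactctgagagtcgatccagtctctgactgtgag
Bst2 (chr8:71537423-71537722, minus strand): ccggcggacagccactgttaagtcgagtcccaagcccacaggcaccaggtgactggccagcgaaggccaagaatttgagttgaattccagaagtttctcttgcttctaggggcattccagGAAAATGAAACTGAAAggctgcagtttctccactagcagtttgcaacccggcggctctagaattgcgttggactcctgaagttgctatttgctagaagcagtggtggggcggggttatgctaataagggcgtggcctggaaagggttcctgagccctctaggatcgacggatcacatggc
Ifit1 (chr19:34640639-34640938, plus strand): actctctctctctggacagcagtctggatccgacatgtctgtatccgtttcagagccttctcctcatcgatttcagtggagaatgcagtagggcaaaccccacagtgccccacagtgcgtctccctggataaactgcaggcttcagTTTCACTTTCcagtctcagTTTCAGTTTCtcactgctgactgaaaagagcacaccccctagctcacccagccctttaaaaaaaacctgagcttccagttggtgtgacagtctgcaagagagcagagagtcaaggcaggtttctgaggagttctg
Irf7 (chr7:141266375-141266674, minus strand): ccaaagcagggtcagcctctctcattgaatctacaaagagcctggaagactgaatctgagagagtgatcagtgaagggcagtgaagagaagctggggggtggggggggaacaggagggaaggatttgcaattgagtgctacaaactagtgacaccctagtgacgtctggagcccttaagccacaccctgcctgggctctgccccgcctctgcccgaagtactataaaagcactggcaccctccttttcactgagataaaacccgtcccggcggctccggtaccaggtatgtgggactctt
Isg15 held 3 overlapping matches, the first at position −78, Bst2 held 2 overlapping matches from position −130, and Ifit1 held 2 separate matches on the opposite strand, while the letters do not occur in the Irf7 window. Promoters were found for 8 members, all but Usp18. The motif stood in 5 of these 8 (Isg15, Bst2, Ifit1, Ifit3 and Rsad2) and not in the windows of Irf7, Oasl2 and Ifi44. It stood in 3.44% of all 32851 promoters of the table and in 37.8% of the 90 promoters of other interferon-stimulated genes (34 of 90). Members that hold it included both the most read (Bst2) and the least read (Ifit3) in MN1 cells.

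The levels per length in MN1 cells differed widely among the members. Bst2 (GRCm38 chr8:71534264-71537437), which tethers budding enveloped viruses to the cell surface, had the highest level in total mRNA, 184 ± 58.9 CPM per kb of exon (SD, n = 6 libraries), a level exceeded by few genes (percentile 99.1 of the genes with a read). Isg15 (chr4:156199424-156200818), a ubiquitin-like protein that is attached to other proteins, followed with 73.4 ± 29.3 CPM per kb. Usp18 (chr6:121245906-121270916), the protease that removes Isg15 and dampens receptor signalling, had 8.95 ± 4.73 CPM per kb, and Oasl2 (chr5:114896936-114912234), of the oligoadenylate synthetase family, had 4.66 ± 2.61 CPM per kb. Irf7 (chr7:141262706-141266481), the transcription factor that amplifies interferon production, had 2.04 ± 1.396 CPM per kb, and Rsad2 (chr12:26442753-26456452), the antiviral enzyme viperin, had 1.73 ± 0.352 CPM per kb. The ranges of Bst2 (130 to 277) and Isg15 (45.6 to 110.5) did not overlap with each other, whereas Usp18 and Oasl2, Oasl2 and Irf7, and Irf7 and Rsad2 each overlapped.

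The other 3 members had few or no reads in MN1 cells. Ifit1 (chr19:34640871-34650009), which binds viral RNA that lacks host cap methylation, had between 0 and 7 reads per total mRNA library, 22 in all (1.87 CPM), and 4 over the 6 footprint libraries. Ifit3 (chr19:34583531-34588731), its partner, had 0 reads in all 12 MN1 libraries, which allows up to 3 reads of 11741800 in total mRNA. Of the 30-base windows in Ifit3 exons, 62.5% are shared with Ifit3b, so uniquely mapped reads can undercount it, and Ifit3b itself had 2 reads in MN1 total mRNA and 0 in MN1 footprints. Ifi44 (chr3:151730922-151749960), a protein of less certain role, had 1 read in each library type. For the remaining members at most 13.8% of windows (Isg15) were shared with another gene, and Irf7 alone overlaps an exon of a neighbor, Phrf1, over 45 bases that counting without strand cannot assign.

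**Figure D1:**
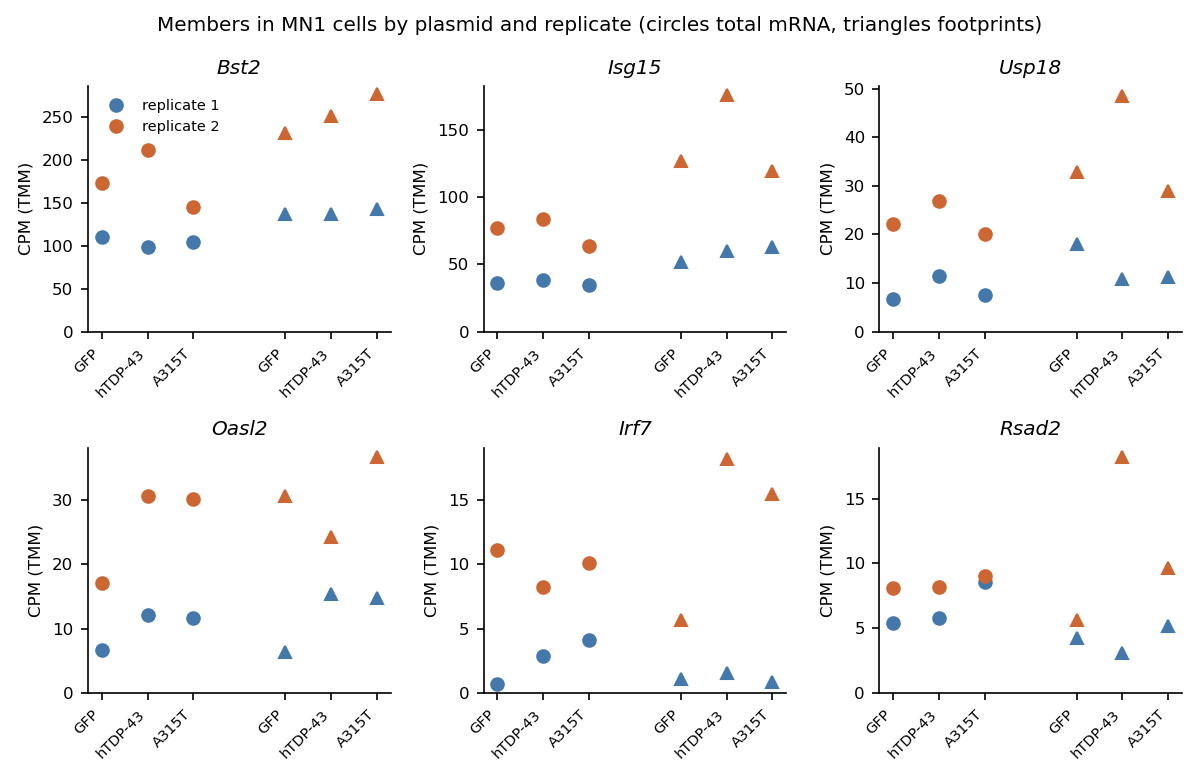
Level of 6 members in each MN1 library, in CPM after TMM scaling, by plasmid (x axis), replicate (colour) and library type (circles total mRNA, triangles footprints); 1 point is 1 library. In every panel but Rsad2 total mRNA all replicate 2 points lie above all replicate 1 points of the same library type.

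The 3 plasmids were compared pairwise to ask whether human TDP-43 or its mutant changed the members. No member passed adjusted p below 0.05 in any of the 6 comparisons by edgeR's quasi-likelihood test, and none reached an unadjusted p below 0.05 in these fits without a block. DESeq2 gave the same counts of 0. Across all genes the comparisons called 0.00965% (hTDP-43 A315T against GFP), 0.01% (hTDP-43 against GFP) and 0.0% (hTDP-43 A315T against hTDP-43) of the genes tested in total mRNA, and 0.0115%, 0.0% and 0.0% in footprints. Of the members 6 passed the filter on low counts in total mRNA (Isg15, Oasl2, Usp18, Irf7, Bst2 and Rsad2) and 4 in footprints (Isg15, Oasl2, Usp18 and Bst2). Ifit1 did not pass it, so its difference between plasmids was not tested. It had 2, 9 and 11 reads in total mRNA with GFP, hTDP-43 and hTDP-43 A315T, and 0, 2 and 2 in footprints.

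In total mRNA, hTDP-43 A315T against GFP gave log2 fold changes of 0.68 ± 0.52 (SE) for Oasl2 and 0.33 ± 0.41 for Rsad2. Those of Bst2 (−0.21 ± 0.23), Isg15 (−0.27 ± 0.37) and Usp18 (−0.22 ± 0.57) were negative, and Irf7 was at 0.01. The values of hTDP-43 against GFP, which share the GFP libraries, ran from −0.31 (Irf7) to 0.73 (Oasl2), and those of hTDP-43 A315T against hTDP-43 ran from −0.50 (Usp18) to 0.34 (Rsad2). In footprints the 3 comparisons together ran from −0.51 to 0.34. With a block for the replicate number the errors shrank, for Bst2 from 0.23 to 0.11 in hTDP-43 A315T against GFP, and still no member passed. Oasl2 then came closest, at 0.81 ± 0.29 with hTDP-43 A315T (edgeR, unadjusted p = 0.00839, adjusted p = 0.122) and 0.84 ± 0.30 with hTDP-43 (unadjusted p = 0.00588, adjusted p = 0.442). The block raised the calls over all genes from 1 to 283 in hTDP-43 A315T against GFP, so it made calls elsewhere in the same fit.

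Translational efficiency, the footprint level relative to total mRNA, was compared between plasmids as an interaction. Its log2 differences for the members ran from −0.69 to 1.49 over both hTDP-43 plasmids against GFP. None of the 6 and 5 members tested passed, at an unadjusted p below 0.05 or after adjustment, by edgeR or DESeq2, beside 0.0% of all genes. The highest value was that of Irf7, whose footprint counts were between 1 and 8 per library.

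The larger difference in MN1 cells was between the culture dates. All replicate 1 titles carry 17 April and all replicate 2 titles carry 22 May, and each date holds 1 culture of every plasmid. The title of the GFP footprint library of replicate 1 gives the same day a year later than the others. The date is all the labels give, so culture, transfection and library preparation cannot be told apart. In total mRNA 5 of the 6 members tested were higher in replicate 2 by edgeR with plasmid as a covariate, beside 6.42% of all genes. In footprints all 5 members tested were higher, beside 2.64% of all genes. In both library types Irf7 met the filter on low counts through replicate 2 libraries only. Usp18 in footprints would not have met it by replicate 1 libraries alone. The place of these genes among the members tested thus depended on the date at which they were high. The groups did not overlap for 5 of the 9 members in total mRNA and for 6 in footprints, where Rsad2, which did not pass the filter on low counts, is included. Replicate 2 lay wholly above replicate 1 for 13.8% and 10.9% of the genes that passed that filter, a set unlike the 9 members.

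Isg15 had 35.8, 38.1 and 34.5 CPM in the replicate 1 total mRNA libraries (GFP, hTDP-43 and hTDP-43 A315T) and 77.2, 83.6 and 63.6 CPM in replicate 2. Its footprints gave 51.8, 60.3 and 63.2 CPM against 127, 176 and 120 CPM. In both library types every May library lay above every April library. The log2 fold change was 1.03 ± 0.13 in total mRNA (edgeR, adjusted p = 0.0001) and 1.23 ± 0.16 in footprints (adjusted p = 6.37e-05).

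Bst2 had 110, 99.3 and 104 CPM in replicate 1 and 173, 212 and 146 CPM in replicate 2 of total mRNA. Its footprints gave 137, 138 and 143 CPM against 232, 252 and 278 CPM. The groups stood apart in both, with log2 fold changes of 0.73 ± 0.11 (edgeR, adjusted p = 0.000303) and 0.86 ± 0.11 (adjusted p = 4.22e-05), the lowest of the members that passed.

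Usp18 had 6.76, 11.5 and 7.51 CPM in replicate 1 and 22.2, 26.9 and 20.2 CPM in replicate 2 of total mRNA. Its footprints gave 18.0, 10.8 and 11.3 CPM against 32.8, 48.5 and 28.9 CPM. Oasl2 had 6.76, 12.1 and 11.6 CPM against 17.1, 30.6 and 30.2 CPM in total mRNA. Both genes were higher in each of the 3 plasmid pairs of either library type. Their log2 fold changes were 1.42 ± 0.24 and 1.35 ± 0.22 in total mRNA and 1.33 ± 0.32 and 1.43 ± 0.35 in footprints.

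Irf7 moved the most by fold from a low level. It had 0.676, 2.89 and 4.09 CPM in replicate 1 and 11.1, 8.21 and 10.1 CPM in replicate 2 of total mRNA, a log2 fold change of 1.804 ± 0.42 (edgeR, adjusted p = 0.00836) that did not pass without the GFP library of either date. In footprints the 3 April libraries held 1 read each and the May libraries 5, 6 and 8 reads. The pooled ratio was 10.4, with a 95% counting interval (exact, conditional binomial) of 3.06 to 54.8 that covers counting error only. Rsad2 differed from the rest in total mRNA, where 5.41, 5.77 and 8.53 CPM stood against 8.11, 8.21 and 9.01 CPM and the groups overlapped (log2 fold change 0.33 ± 0.33, adjusted p = 0.538). Its footprints gave 4.23, 3.09 and 5.196 CPM against 5.66, 18.2 and 9.65 CPM and were too few to be tested. Ifit1 had 7 reads in April and 15 in May over the total mRNA libraries, a ratio of 2.37 with a counting interval of 0.911 to 6.88.

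**Figure D2:**
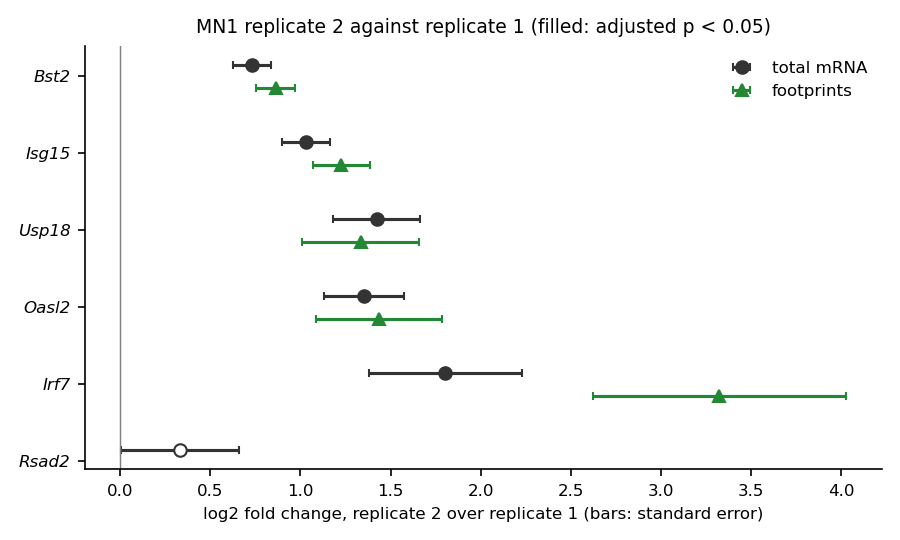
Log2 fold change of replicate 2 over replicate 1 in MN1 cells for each member tested (x axis), with its standard error, in total mRNA (circles) and footprints (triangles); filled symbols passed adjusted p below 0.05. All filled symbols lie between 0.73 and 3.32, and Rsad2, at 0.33, is the open one.

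DESeq2 called fewer genes in these comparisons, 246 in place of 1536 over all genes in total mRNA and 62 in place of 404 in footprints. By DESeq2 4 members kept their call in total mRNA (Isg15, Bst2, Oasl2 and Usp18), and in footprints Isg15 kept it (adjusted p = 0.0117) while Bst2 (adjusted p = 0.0884), Usp18 (0.592) and Oasl2 (0.802) did not. When any 1 library was left out, edgeR called 4 or 5 members in total mRNA and between 3 and 5 in footprints, and Isg15 and Bst2 kept their calls throughout.

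The other genes of the pathway were taken from lists drawn up by function, with earlier results of these data known. Of 81 further interferon-stimulated genes, 47 were tested in total mRNA, of which 26 were higher in replicate 2, 0 were lower and 21 did not pass. Their median log2 fold change was 0.66, beside −0.01 for all genes tested. In footprints 36 were tested and 11 were higher, 0 lower, with a median of 0.57. On this list 9 passed in both library types (H2-D1, H2-K1, Ifi27, Ifitm3, Lgals3bp, Lgals9, Parp12, Tapbp and Xaf1). By DESeq2 6 of this list passed in total mRNA and 3 in footprints.

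The genes of that list with the largest changes among those that passed in total mRNA were Mx2, an antiviral dynamin-like GTPase, at 2.77 ± 0.49 and Irgm2, an immunity-related GTPase, at 1.81 ± 0.39. They were followed by Ube2l6, the enzyme that conjugates Isg15, at 1.63 ± 0.25, Dhx58, an RNA helicase of the sensing pathway, at 1.44 ± 0.27, and Apol9a at 1.44 ± 0.39. Mx2 rose from between 1.02 and 1.35 CPM to between 6.89 and 11.2 CPM, but had 0 reads in all 6 footprint libraries. Like Irf7, Mx2 met the filter on low counts through replicate 2 libraries only. Whether other genes of the list did so was not examined, so the counts and medians of this list can include such genes. In footprints the largest changes among those that passed were Xaf1 (1.81 ± 0.38), the lectin Lgals9 (1.75 ± 0.26), the chemokine Ccl5 (1.42 ± 0.40), Ifi27 (1.42 ± 0.14) and Tapbp (0.92 ± 0.11), which loads peptides on class I histocompatibility molecules.

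Among 12 signalling genes, 11 were tested in total mRNA and 3 were higher. Irf9, the DNA-binding subunit of the complex that reads the response element, went from between 11.9 and 13.5 CPM to between 33.7 and 38.8 CPM, a log2 fold change of 1.49 ± 0.20 (edgeR, adjusted p = 0.000113), and it was also higher in footprints at 1.55 ± 0.37. The transcription factor Irf1 was higher by 0.62 ± 0.15 and Stat2 by 0.45 ± 0.13 in total mRNA. In footprints Jak2 was higher by 1.79 ± 0.41 and Irf8 was lower, at −0.92 ± 0.14, and Stat2 gave 0.07 ± 0.21.

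None of the 5 receptor genes and none of the 12 genes of the nucleic acid sensing list tested in total mRNA passed, nor any of 4 and 9 in footprints, by edgeR or DESeq2. At an unadjusted p below 0.05 edgeR gave 0 receptor genes and 2 genes of the sensing list in either library type, and DESeq2 gave 0. Dhx58 and Ddx58, RNA helicases of the sensing pathway, stood on the list of other interferon-stimulated genes instead. Both were higher in total mRNA by edgeR (1.44 ± 0.27 and 1.13 ± 0.23), and neither passed in footprints (0.92 ± 0.44 and 1.00 ± 0.32). Ifnar1, a chain of the type I interferon receptor, had 57.9 ± 4.69 CPM (SD, n = 6) in total mRNA and gave 0.17 ± 0.13 between dates. Of the negative regulators 10 were tested in total mRNA, of which Irf2bp2 was higher (0.31 ± 0.08) and Irf2bp1 lower (−0.37 ± 0.10), and 0 of 7 passed in footprints by edgeR or DESeq2 (1 and 0 at an unadjusted p below 0.05). Interferon genes themselves were hardly read. Ifnb1, the gene for interferon beta, had 0 reads in all 28 libraries, and the 21 listed interferon genes together had 4 reads over the 6 MN1 total mRNA libraries. Since poly(A)-selected libraries of 1328528 to 2988339 reads can miss a rare transcript, lower levels were not detectable at this depth.

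**Figure D3:**
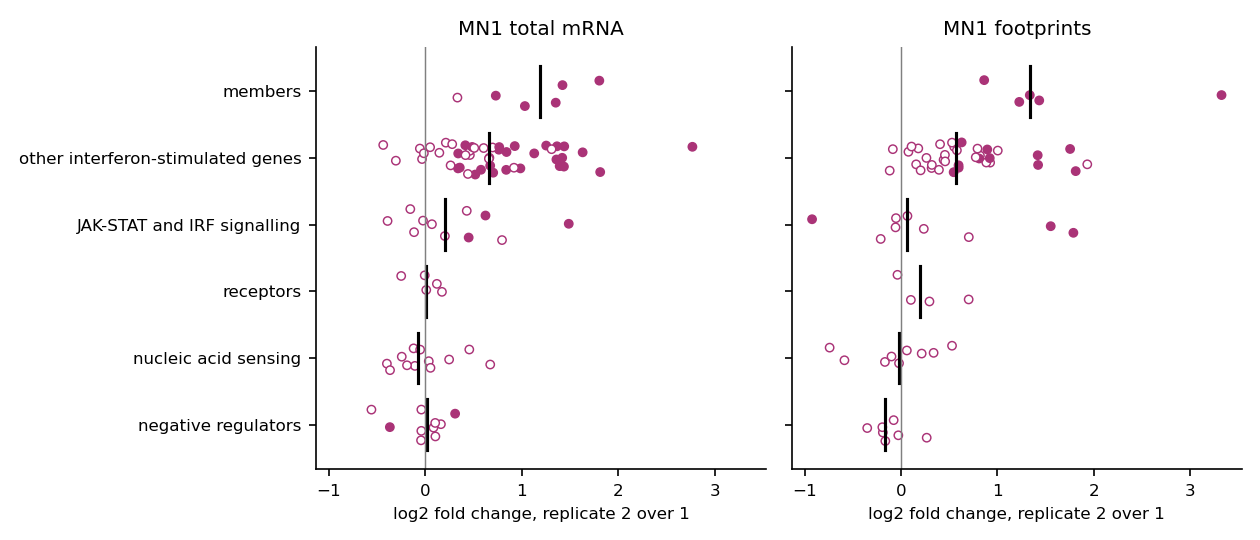
Log2 fold change of replicate 2 over replicate 1 in MN1 total mRNA (left) and footprints (right) for every tested gene of each list; filled points passed adjusted p below 0.05 and black bars mark each list's median. In total mRNA the medians are 1.19 for the members and 0.66 for the other interferon-stimulated genes, and 0.01 for the receptors.

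Markers of other cell types were summed for the same libraries. The astrocyte list (7 genes) summed to between 7.50 and 12.2 CPM in April and between 20.1 and 31.3 CPM in May in MN1 total mRNA, with 95.3% of its reads on Aldoc and with Aldh1l1, Gja1 and S100b at 0. The microglia list (13 genes) summed to between 33.4 and 37.2 CPM and between 43.5 and 47.8 CPM, with C1qa, C1qb, Csf1r and Tyrobp at 0. Oligodendrocyte, endothelial and neuron lists overlapped between the dates, and the fibroblast list (28 reads in all) summed to between 1.15 and 2.05 CPM in April and between 2.12 and 5.22 CPM in May. In footprints that list had 5 reads, all in April. Motor neuron markers summed to between 1072 and 1134 CPM in April and between 1244 and 1297 CPM in May. Several defining markers of astrocytes and microglia thus had no read in MN1 total mRNA, and the part of culture composition in the date difference was not tested further. In bulk libraries fewer cells that express a gene and less RNA per cell cannot be told apart.

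Over the 6 MN1 total mRNA libraries, the genes whose log2 CPM followed the mean of the 6 tested members most closely were Gpr107 (Pearson r = 0.998), Nat8l (0.998), Tmem42 (0.995), Trp53i11 (0.995) and Gdf15 (0.993). None of them is on the interferon lists. The 100 closest of 10271 genes held 5 of the 47 listed interferon-stimulated genes tested, Irgm1 (r = 0.988), Lgals3bp, Ifi27, Parp10 and Dhx58. The 6 libraries fall into the 2 dates, 465 genes had r above 0.9, and the values mainly describe the step between dates.

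Footprints were compared with total mRNA over the same cultures to ask how far ribosome occupancy followed mRNA level. Footprints lie on coding sequence whereas total mRNA reads cover whole exons, so each gene's ratio is relative to the average gene. Isg15 was higher in footprints by 0.99 ± 0.32 (edgeR, adjusted p = 0.0174) and Bst2 by 0.67 ± 0.24 (adjusted p = 0.0257), 2 of 6 members tested, beside 27.2% of all genes. Usp18 gave 0.74 ± 0.43 (adjusted p = 0.155), Oasl2 0.40 ± 0.43, and Rsad2 and Irf7 were at 0.03 and −0.01. Both calls were lost when footprint replicate 2 of GFP or of hTDP-43 was left out (Isg15 0.74 and 0.72, Bst2 0.53 in each). The median over these 6 members was 0.54, beside −0.05 for all genes.

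The footprint and total mRNA libraries of a culture are paired by their source. With the culture as a block Isg15 (1.02 ± 0.11) and Bst2 (0.69 ± 0.09) kept their calls, and Usp18 (0.83 ± 0.22, adjusted p = 0.00233) and Oasl2 (0.52 ± 0.22, adjusted p = 0.0444) passed as well, beside 29.4% of all genes higher in footprints in that fit. In the fit without the block 46 of the other interferon-stimulated genes were tested, of which 9 were higher in footprints and 5 lower. In that fit 27.2% of all genes were higher in footprints. Parp12 had the largest difference among them (2.58 ± 0.23), and B2m, the light chain of class I histocompatibility molecules, gave 1.76 ± 0.15. Of the 5 receptor genes tested in the fit without the block 3 were lower in footprints, among them Ifnar1 at −0.71 ± 0.16.

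In cortical neurons each of the 9 members had between 0 and 7 reads per library. The 8 total mRNA libraries held between 2 and 23 reads on the members together and the 8 footprint libraries between 0 and 8. No member passed the filter on low counts in any neuron comparison, and in fits without the filter none passed adjusted p below 0.05 (edgeR). Values are therefore given as pooled reads with exact Poisson 95% intervals that cover counting error only. Isg15 had 18 reads of 26577132 in total mRNA, 0.677 CPM (0.401 to 1.07), and it was the only member with a read in all 8 total mRNA libraries. Irf7 had 17 reads, Rsad2 14, Oasl2 12, Bst2 12 and Ifi44 8, whereas Ifit1 and Ifit3 had 2 each. Usp18 had 0 reads in all 16 neuron libraries, for which the floor of 3 reads corresponds to 0.113 CPM in total mRNA. Per length the order was Isg15 (1.11 ± 0.788 CPM per kb), Bst2 (0.726 ± 0.849) and Irf7 (0.191 ± 0.314; SD, n = 8), and these 3 ranges overlapped.

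For some members the reads came from few libraries. Both Ifit3 reads came from the total mRNA library of hTDP-43 A315T replicate 1, all 4 Ifi44 footprint reads came from the footprint library of the same culture, and 7 of the 17 Irf7 reads came from WT replicate 3. At 0 to 7 reads per library and member, a difference between genotypes was not detectable for a single member.

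Summed over the members, total mRNA had 19 reads in WT (2.79 CPM, 1.68 to 4.35), 28 in hTDP-43 (3.27 CPM, 2.18 to 4.73) and 38 in hTDP-43 A315T (3.39 CPM, 2.40 to 4.66). The 3 intervals overlapped. Of the 19 WT reads 14 came from replicate 3, and without that library WT had 1.39 CPM (0.450 to 3.23). Footprints had 3 reads in WT (1.60 CPM, 0.329 to 4.66), 2 in hTDP-43 (0.728 CPM, 0.0882 to 2.63) and 12 in hTDP-43 A315T (2.97 CPM, 1.53 to 5.18), again with overlapping intervals. Both hTDP-43 footprint reads came from replicate 1. By date, total mRNA had 3.15 CPM on 17 June, 2.01 CPM on 16 July and 4.41 CPM (3.01 to 6.22) on 29 July, and WT has no library of the first date. The interval of the last date overlapped that of the second (1.10 to 3.38). Overlap of separate intervals is not a test, for the dates or the genotypes, and the summed reads were not tested.

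The neuron level was far below that of MN1 cells for 7 members. The neurons received no cycloheximide before lysis, unlike the MN1 cells, and also differ in cell type, transfection and date. These cannot be told apart, so the values are set side by side. Pooled Bst2 was 137 CPM (130 to 144) in MN1 total mRNA and 0.452 CPM (0.233 to 0.789) in neurons, a ratio of 303 (173 to 587). Isg15 had a ratio of 79.6 (50.0 to 135), Oasl2 of 38.3 (21.5 to 75.3), Ifit1 of 24.9 (6.12 to 218), Rsad2 of 14.6 (8.24 to 27.7) and Irf7 of 9.85 (5.76 to 17.8). Usp18 was at least 134-fold higher in MN1 cells by its pooled value over the floor of 3 reads in the neuron group, counting error of the MN1 value not included. Ifi44 had 1 read in MN1 cells and 8 in neurons (ratio 0.283, 0.00638 to 2.11). In footprints the ratios were 262 (120 to 717) for Bst2 and 379 (104 to 3142) for Isg15.

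**Figure D4:**
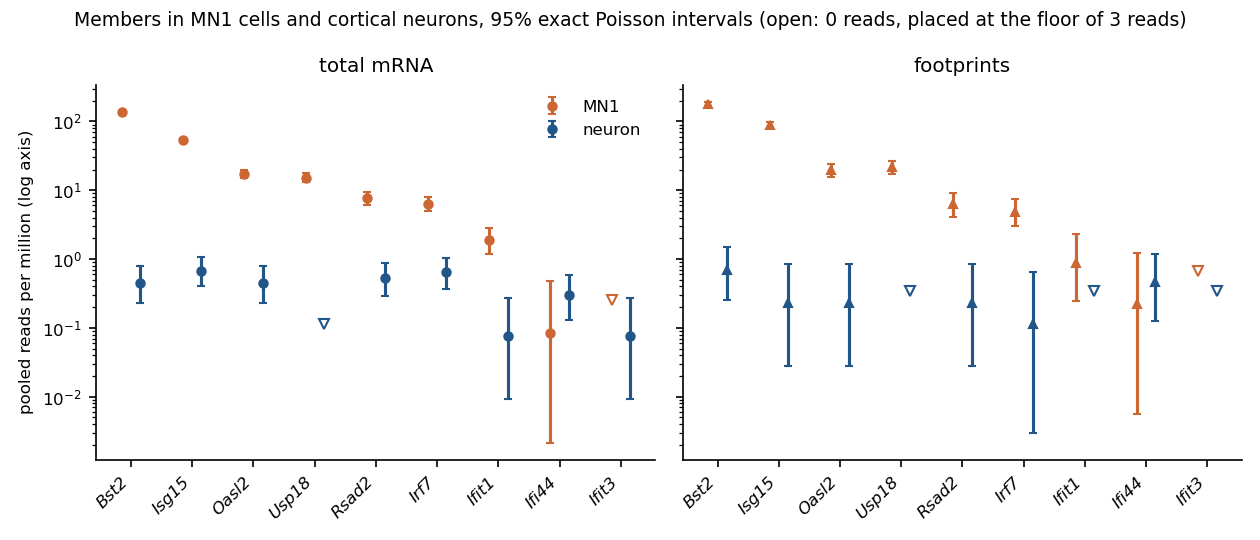
Pooled CPM of each member, from library totals without TMM, in MN1 cells and cortical neurons, with 95% exact Poisson intervals on a log axis, in total mRNA (left) and footprints (right); open triangles stand at the floor of 3 reads where 0 reads were found. The intervals of the 2 cell types lie apart for 7 members in total mRNA (Bst2, Isg15, Oasl2, Usp18, Rsad2, Irf7 and Ifit1).

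The receptor and signalling genes moved in both directions between the cell types. Of 5 receptor genes tested in total mRNA 2 were higher and 3 lower in neurons, and of 12 signalling genes 3 were higher and 6 lower (medians −0.77 and −0.67). Over all genes tested 38.4% were lower in neurons, with a median of 0.09. DESeq2 called 2 receptor genes lower in place of 3. Ifnar1 had 62.8 ± 8.97 CPM in neuron total mRNA (SD, n = 8) and was higher there than in MN1 cells by 0.57 ± 0.12 on the log2 scale (edgeR, adjusted p = 0.000579). Ifngr2, a chain of the receptor for interferon gamma, was higher by 1.59 ± 0.13, whereas Il10rb, a chain shared by the receptors of interferon lambda and other cytokines, was lower, at −4.91 ± 0.39. Among the signalling genes the transcription factor gene Irf8 was higher by 3.84 ± 0.96 and the kinase gene Jak2 by 1.86 ± 0.24. The transcription factor genes Irf1 (−4.22 ± 0.24), Irf5 (−2.99 ± 0.67), Irf3 (−1.83 ± 0.22), Irf9 (−1.44 ± 0.35) and Stat2 (−0.88 ± 0.18) were lower. In footprints Irf1 was at −5.22 ± 0.50 and Irf9 at −3.10 ± 0.51, and Irf8 was lower there, at −1.30 ± 0.37, opposite to its total mRNA. Lower levels were also found for the sensing adaptors Tmem173 (−6.56 ± 0.50), which encodes STING, and Mavs (−3.43 ± 0.24), and 10 of the 13 sensing genes tested were lower in neurons (median −1.85), beside 38.4% of all genes (median 0.09). Microglia markers summed to between 7.57 and 18.0 CPM in neuron total mRNA and astrocyte markers to between 54.8 and 140 CPM, and the source of the few member reads among the cells of these cultures was not tested.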

How the data were processed

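The authors deposited raw counts of reads per gene, 1 table per library. Per the labels and the study's methods, reads were clipped with cutadapt 1.8.1, freed of non-coding RNA with Bowtie2, aligned to GRCm38 with TopHat2 and counted over exons with featureCounts 1.4.4 without strand, uniquely mapped reads only. Reads shared by near-identical genes are therefore lost, and antisense reads are not told apart. Of 45513 genes, 44585 were matched to a symbol.

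The 28 libraries fall into 12 groups of 2 or 3, named by the labels. The replicates are separate cultures. No 2 libraries were identical. CPM used TMM factors within a cell type and library type. Tests used edgeR 4.0.16 (quasi-likelihood, Benjamini-Hochberg adjustment over all genes tested, filterByExpr with a minimum count of 10 and a minimum total of 15, R 4.3.3), fitted on the whole table. Standard errors were derived from the fold change and its F statistic and are left out where F was near 0. Pairwise fits held the groups compared, without a block. Alternatives were DESeq2 1.42.0, RLE size factors, no filter, all 3 groups in 1 fit, a replicate block and leaving out each library. Adjusted p-values that DESeq2 gives as missing (Irf7 and Rsad2) were left out.

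Libraries with the same replicate number share a date in their titles, and so are paired. Their deviations from the group means correlated over genes with mean r of 0.442 (MN1 total mRNA), 0.356 (MN1 footprints), 0.193 (neuron total mRNA, 1 pair as low as −0.185) and 0.153 (neuron footprints). The scripts were tested on simulated data.

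The members and gene lists were chosen with earlier results of these data known. Beside all members, list genes were named where they passed, at most 5 per list and comparison by size of change, with Stat2, Irf9, Ifnar1, Ifnb1 and Tardbp in any case. Ddx58 was added because it acts in the sensing pathway. A few listed genes are not reported here. The genes most like the members were ranked by Pearson r of log2 CPM. Intervals and floors (3 reads) cover counting error only.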

Additional observations from a re-analysis of the deposited data

How the results depend on the processing

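The count of members past adjusted p 0.05 stayed at 0 in the pairwise plasmid comparisons and in translational efficiency under every alternative (size factors, no filter, DESeq2, all 3 groups in 1 fit, replicate block), except that leaving out 1 library gave between 0 and 1 in MN1 total mRNA, hTDP-43 A315T against hTDP-43 (Bst2, without hTDP-43 replicate 1). For the dates, the count in footprints fell from 5 to 1 with DESeq2 and was between 3 and 5 when 1 library was left out. For footprints against total mRNA it was 2, became 4 with a replicate block by culture (paired libraries, where 29.4% of all genes were called higher in footprints, against 27.2%), and was between 0 and 2 when 1 library was left out. It was 0 without GFP replicate 2 or hTDP-43 replicate 2 of the footprints. Irf7 lost its date call in total mRNA without either GFP library (adjusted p = 0.071 and 0.0907). In footprints Oasl2 lost it without either GFP library or hTDP-43 A315T replicate 2, Usp18 without either hTDP-43 library, and Irf7 without hTDP-43 A315T replicate 1 or hTDP-43 replicate 2. Bst2 lost its footprint against total mRNA call without any of the replicate 1 total mRNA or replicate 2 footprint libraries.

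Leaving out 1 library, which leaves a plasmid with 1 date, turned the direction of uncalled members in hTDP-43 A315T against GFP: Isg15 ranged from −0.74 to 0.42, Irf7 from −0.72 to 3.21, Oasl2 from −0.10 to 1.56, Bst2 from −0.47 to 0.17 and Usp18 from −1.01 to 0.96. In footprints against total mRNA, Irf7 (−0.89 to 1.03), Oasl2 (−0.085 to 0.70) and Rsad2 (−0.43 to 0.38) did likewise. Irf7 also turned positive there with RLE size factors (0.0077), DESeq2 (0.21) and the replicate block by culture (0.11), and Rsad2 turned negative without the filter (−0.062). No date or cell type value changed direction. The neuron libraries limit the members to a few reads each, so no statement on genotype there has support in either direction.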

Other observations

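A few listed genes outside the members had an uneven split between footprints and total mRNA. Irf8, a transcription factor best known from myeloid cells, had 971 footprint reads and 38 total mRNA reads over the 6 MN1 cultures, a log2 difference of 6.30 ± 0.34 (edgeR, adjusted p = 4.65e-09). In neurons it had 1217 footprint and 771 total mRNA reads, with total mRNA values from 3.33 to 189 CPM between libraries. Ifitm3, an antiviral membrane protein, was higher in footprints in MN1 cells (1.16 ± 0.24) and lower in neurons (−4.25 ± 0.90), where 7 footprint reads stood against 151 total mRNA reads. The difference between the cell types was not tested. Parp12 was higher in footprints in both (2.58 ± 0.23 and 2.43 ± 0.42), as was B2m (1.76 ± 0.15 and 1.59 ± 0.24).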
